A study of Homo sapiens with 12 samples.

Results

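Chromosome 19 holds the densest array of zinc finger genes in the human genome, and these genes were followed in polysome-associated RNA of 3 triple-negative breast cancer (TNBC) lines in which TRMT112 was silenced or overexpressed. Members were the protein-coding genes that GENCODE 44 places on chromosome 19 under a symbol made of ZNF and a number. This gave 240 genes, of which 233 had a row in the deposited count table among 24559 gene symbols in all. The 7 genes without a row were ZNF208, ZNF676, ZNF729, ZNF723, ZNF728, ZNF536 and ZNF835. The table lists only transcripts with a value above 0 in at least 1 BT549 library, so a gene not detected in BT549 could not appear in the other lines. Of the 233 genes, 228 passed edgeR's filter on low counts and were tested.

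MDA-MB-231, SUM159 and BT549 are established human TNBC cell lines. MDA-MB-231 and SUM159 carried either the EV control, which the study's methods describe as a GIPZ non-silencing shRNA, or a GIPZ shRNA against TRMT112 (KD). BT549 carried either the empty pReceiver-M02 vector (EV) or a TRMT112 open reading frame (OE). Cells were selected with puromycin or G418, and cells of all groups received cycloheximide, which holds ribosomes on mRNA, shortly before lysis. Each of the 6 groups had 2 libraries, made from RNA of the polysome fractions of sucrose gradients. The sources used here do not say whether the 2 libraries came from separate cultures, so p-values measure only the spread between these libraries, which may be technical. RNA was not sequenced before fractionation, so the amount of an mRNA and its loading with ribosomes cannot be told apart, nor can fewer expressing cells and less RNA per cell.

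Most chromosome 19 ZNF proteins are built from a row of C2H2 zinc fingers, each a short loop held by a zinc ion that reads a few bases of DNA. In many of them a KRAB domain at the amino end recruits TRIM28 (KAP1), a scaffold that brings the histone methyltransferase SETDB1, HP1 proteins and the NuRD complex to the bound site. The family grew by tandem duplication, which left neighbouring genes similar in sequence, and many members bind and repress transposable elements. ZNF91 and ZNF93, for example, are known to bind SVA and LINE-1 elements.

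Several facts of the whole series touch the results below. The libraries held between 22954226 and 27434677 expected counts, and ZNF members took 0.155% to 0.228% of them. TRMT112, the targeted gene, had normalized counts of 4147 and 3938 in MDA-MB-231 EV and 1764 and 1682 in KD. In SUM159 it had 6332 and 6566 in EV and 3909 and 3699 in KD, and in BT549 it had 3076 and 3087 in EV and 4286 and 4319 in OE, each in the direction of the label. Normalized counts are TMM-scaled counts at the mean effective library size. Genes called with at least a 2-fold change made up 3.20% of all genes tested in MDA-MB-231 KD, 15.7% in SUM159 KD and 31.3% in BT549 OE, whereas the EV groups of different lines differed by that much in 36.9% to 45.4% of genes. The mesenchymal marker VIM was abundant in every group, and its mean fell from 47402 to 17136 normalized counts in BT549 OE. Of the epithelial markers, KRT8 had means of 6820 in MDA-MB-231 EV, 4927 and 8525 in SUM159 EV and KD, and 9.90 in BT549 EV. KRT18 had 8788, 4933 and 6.05 in the EV groups of MDA-MB-231, SUM159 and BT549. EPCAM had means of 70.9 and 54.2 in MDA-MB-231 EV and KD and at most 2.52 elsewhere. CDH1 had means of 57.2 and 20.7 in BT549 EV and OE and at most 7.13 elsewhere. PGR was at or near 0, ESR1 had no row, and ERBB2 had group means between 1412 and 3360. Of markers of other cell types, CD3E, VWF and ADIPOQ had no row and PTPRC stayed below 14. CD68 fell from a mean of 4210 to 165 in BT549 OE, CDH5 had means of 15.8 and 88.2 in MDA-MB-231 EV and KD, and PECAM1 had means of 24.7 and 95.8 in SUM159 EV and KD. The part of these shifts in the ZNF results was not tested.

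Members were joined into a position cluster while the gap between neighbours was at most 500000 bases (GRCh38), which gave 10 clusters of 5 or more genes holding 228 of the 240. Cluster 4, from ZNF101 to ZNF254 at chr19:19668796-24129968, had 37 members, and cluster 3, from ZNF653 to ZNF791 at chr19:11483427-12640098, had 25. On the long arm, cluster 8 (ZNF175 to ZNF331, chr19:51571283-53580269) had 39 and cluster 10 (ZNF264 to ZNF446, chr19:57191500-58481230) had 41. Counted in the translated GENCODE coding sequences, members had a median of 12 fingers (range 1 to 36) against 9 for ZNF genes of other chromosomes. A strict pattern for the KRAB A box was found in 182 of the 240 (75.8%), against 31.8% of ZNF genes elsewhere and 2.20% of all coding genes. This pattern misses diverged boxes, so the share is a lower estimate.

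The promoters of the clusters differed in sequence. RefSeq promoter windows (GRCh38.p14, 250 bases before to 50 after the start) were found for 210 of the 240 members. Only the first listed window of a gene was used, so other starts are not covered. Which start was in use in these cells was not measured. Their CpG content, as the observed over the expected number, had a median of 0.765 against 0.580 over all 27305 windows. Cluster 4 stood below the other clusters with a median of 0.438 (range 0.333 to 0.723, 29 windows), and cluster 3 followed with 0.609. The other clusters had medians between 0.749 and 0.869. Cluster 4 promoters were also the most alike. The 250 bases upstream of the start had a median pairwise identity of 78.4% within cluster 4, compared with 54.2% within cluster 8, 54.0% within cluster 10 and 52.8% between genes of different clusters.

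**Figure D1:**
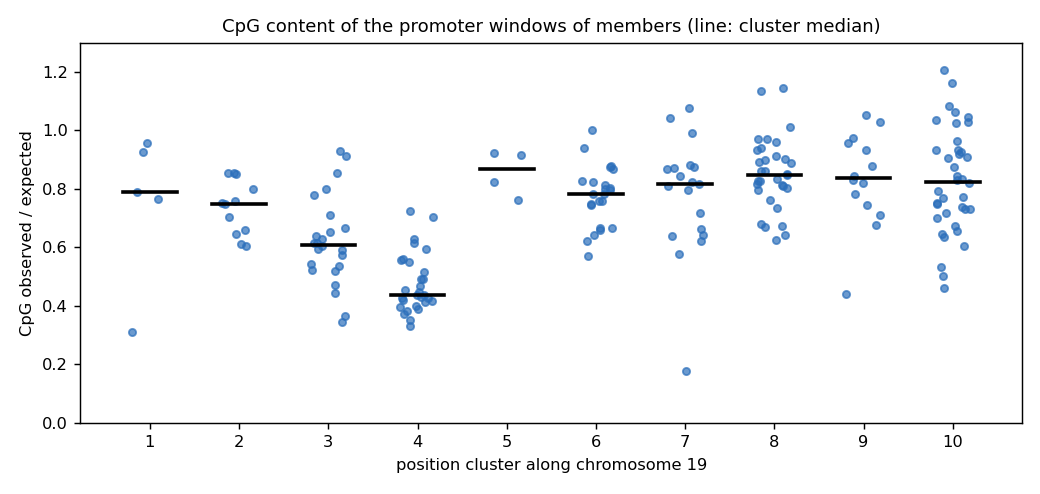
CpG content of the promoter windows of members in the 10 clusters, by position cluster (horizontal axis). The vertical axis is the observed over expected number of CpG sites, each point is a gene and the line is the cluster's median, which is lowest in cluster 4 at 0.438.

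The upstream bases of 6 members that were near 0 in SUM159 EV and detected in KD are shown as in RefSeq (GRCh38.p14), from the far end to the base before the start and on the gene's own strand. ZNF93 (chr19:19900696-19900945, plus strand), ZNF43 (chr19:21836183-21836432, minus strand), ZNF486 (chr19:20166964-20167213, plus strand) and ZNF626 (chr19:20661572-20661821, minus strand) belong to cluster 4. The ZNF43 window lies inside the span of that gene in GENCODE (chr19:21804946-21852125), so it belongs to an inner start. ZNF415 (chr19:53132911-53133160, minus strand) and ZNF347 (chr19:53159054-53159303, minus strand) are neighbours in cluster 8 and are shown for contrast. CpG sites are in capitals.
ZNF93: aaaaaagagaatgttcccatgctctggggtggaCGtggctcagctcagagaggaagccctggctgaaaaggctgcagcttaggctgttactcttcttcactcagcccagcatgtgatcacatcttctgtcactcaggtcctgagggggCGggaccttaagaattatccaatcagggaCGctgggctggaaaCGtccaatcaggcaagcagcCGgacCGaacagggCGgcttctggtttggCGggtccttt
ZNF43: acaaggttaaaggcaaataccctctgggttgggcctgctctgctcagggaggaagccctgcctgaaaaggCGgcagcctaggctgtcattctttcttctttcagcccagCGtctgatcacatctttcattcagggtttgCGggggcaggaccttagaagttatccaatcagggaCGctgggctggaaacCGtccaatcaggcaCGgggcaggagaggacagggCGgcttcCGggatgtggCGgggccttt
ZNF486: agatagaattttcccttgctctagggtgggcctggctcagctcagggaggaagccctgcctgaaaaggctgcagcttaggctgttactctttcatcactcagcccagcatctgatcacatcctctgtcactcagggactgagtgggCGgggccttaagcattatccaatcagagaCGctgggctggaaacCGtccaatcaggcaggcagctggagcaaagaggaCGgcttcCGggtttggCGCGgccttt
ZNF626: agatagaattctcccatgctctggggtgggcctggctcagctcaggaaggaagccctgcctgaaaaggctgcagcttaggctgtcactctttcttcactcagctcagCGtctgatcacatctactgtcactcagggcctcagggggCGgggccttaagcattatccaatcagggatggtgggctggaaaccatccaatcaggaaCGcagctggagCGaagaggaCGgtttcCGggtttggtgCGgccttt
ZNF415: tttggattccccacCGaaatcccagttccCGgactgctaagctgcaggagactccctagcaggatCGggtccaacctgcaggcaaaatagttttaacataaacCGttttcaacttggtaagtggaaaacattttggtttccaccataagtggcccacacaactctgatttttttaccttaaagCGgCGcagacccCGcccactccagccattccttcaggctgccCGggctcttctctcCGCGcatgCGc
ZNF347: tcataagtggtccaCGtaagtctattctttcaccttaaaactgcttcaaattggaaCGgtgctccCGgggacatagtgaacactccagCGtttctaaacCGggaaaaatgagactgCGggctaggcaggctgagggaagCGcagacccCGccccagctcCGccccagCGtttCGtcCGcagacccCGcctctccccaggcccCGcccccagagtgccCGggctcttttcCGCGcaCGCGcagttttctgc
The 4 cluster 4 promoters held 7 to 9 CpG sites each, whereas ZNF415 held 11 and ZNF347 held 19. ZNF486 and ZNF626 were identical at 91.2% of positions and ZNF93 and ZNF486 at 88.0%, while ZNF415 and ZNF347 matched each other at 55.2%.

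Most members were expressed at a low level, and a few made up a large share. The median member had a mean of 112 normalized counts in MDA-MB-231 EV, 63.0 in SUM159 EV and 130 in BT549 EV. Per kilobase of transcript, ZNF428 was the highest in all 3 EV groups, with 2027 normalized counts per kilobase in MDA-MB-231, 1676 in SUM159 and 1987 in BT549. The next places in MDA-MB-231 and SUM159 were held by ZNF146, ZNF787 and ZNF580 in varying order, and in BT549 ZNF444 (878) lay between ZNF580 and ZNF146. None of these 5 genes had a KRAB match. After ZNF428, ZNF146, ZNF787 and ZNF580 came ZNF584 in MDA-MB-231 EV, which had a KRAB match, and ZNF414 in SUM159 EV, which had none. ZNF146 (OZF), a protein made almost only of fingers, had 1470 normalized counts per kilobase in MDA-MB-231 EV, 1061 in SUM159 EV and 856 in BT549 EV. ZNF580, with only 3 fingers, had 572, 1176 and 1126 in the same order. ZNF787 had 1020, 1060 and 1228 on this scale.

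**Figure D2:**
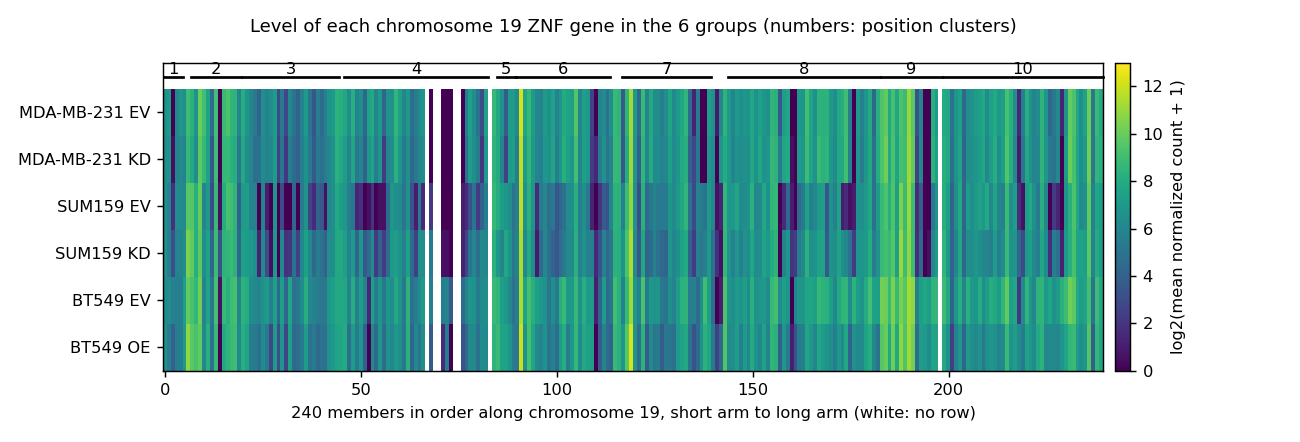
Level of each of the 240 members (columns, in map order) in the 6 groups (rows), as log2 of the mean normalized count plus 1 over 2 libraries. Numbers mark position clusters and white columns are the 7 genes without a row. Dark columns are low levels, and they are dense in clusters 3 and 4 of SUM159 EV, where 9 and 11 members were silent.

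The lines differed in which members they lacked. A member was called silent in a group when each library held at most 3 counts. By this rule 42 of 233 members were silent in SUM159 EV, 19 in MDA-MB-231 EV and 6 in BT549 EV, that is 18.0%, 8.15% and 2.58%. Of all protein-coding genes with a row, 16.9%, 15.2% and 16.2% were silent in the same groups. The BT549 value is lowered by the table, which lists no gene undetected in that line. No member was silent in all 6 groups, and 187 were silent in none. Of the 42 members silent in SUM159 EV, 11 lay in cluster 4, 9 in cluster 3 and 7 in cluster 8, and 15 were silent in MDA-MB-231 EV too (35.7% of the SUM159 set and 78.9% of the MDA-MB-231 set). The 34 of them with a promoter window had a median CpG ratio of 0.622, and the 172 members not silent there had 0.781. In MDA-MB-231 EV and BT549 EV the order was the opposite, with 0.825 for silent members and 0.764 for the others in both lines, over 15 and 5 silent members with a window.

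**Figure D3:**
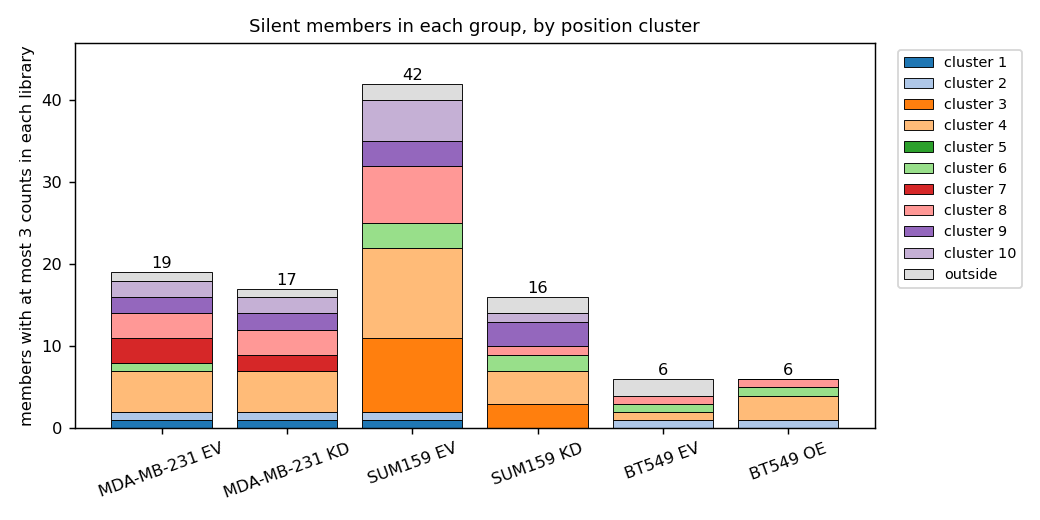
Number of members with at most 3 counts in each library (vertical axis) in each group, stacked by position cluster. SUM159 EV had 42 silent members, and SUM159 KD had 16.

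Neighbouring genes were silent together in places. ZNF98, ZNF492 and ZNF99, which follow each other in cluster 4, were silent in both MDA-MB-231 and both SUM159 groups and were detected in BT549 EV, with normalized counts of 53.7 and 39.9 for ZNF98 and 51.5 and 63.1 for ZNF492. The only listed transcript of ZNF99 and 2 of the 3 of ZNF98 held a mark for a missing value, taken as 0. For these genes, low counts and missing values in MDA-MB-231 and SUM159 cannot be told apart. ZNF492 had no such mark. In SUM159 EV alone among the 6 groups, ZNF737, ZNF626 and ZNF66 formed such a run, and so did ZNF415, ZNF347, ZNF665 and ZNF677 of cluster 8. Members of a run are similar genes that can share reads, so they are not independent. Other members were silent in both MDA-MB-231 groups and abundant in BT549. ZNF229 of cluster 7 had 0 counts in all 4 MDA-MB-231 libraries, 33.3 and 30.2 normalized counts in SUM159 EV, and 486 and 540.4 in BT549 EV. ZNF677 and ZNF471, both known as genes silenced by promoter methylation in several cancers, had 346 and 321 and 157 and 144 normalized counts in BT549 EV, and 0 in every MDA-MB-231 library. ZNF667 had 0 in all 8 MDA-MB-231 and SUM159 libraries and 223 and 218 in BT549 EV. In the opposite direction, ZNF90 had 180 and 194 normalized counts in MDA-MB-231 EV and at most 3.28 in every BT549 library.

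In SUM159, more members rose than fell with TRMT112 KD. Of 228 tested members, 74 were called higher and 33 lower, where 28.6% of all genes tested were called higher and 31.4% lower. As shares this was 32.5% and 14.5% of the members. With a change of at least 2-fold, 42 members were higher (18.4%) and 8 lower (3.51%), against 7.28% and 8.39% of all genes. All 42 kept a 2-fold change when a group at 0 was set at 3 counts over its 2 libraries. The median log2 fold change of members was 0.21, or 0.17 with groups at 0 set at that bound, and that of all genes was 0.00. ZNF genes of other chromosomes had a median of -0.02, with 46 of 216 higher and 60 lower.

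The rise was uneven along the chromosome. In cluster 4, 19 of 31 tested members were called higher and 0 lower, with a median log2 fold change of 1.98 (1.29 with the bound). The summed normalized counts of the cluster were 780 and 841 in EV and 1648 and 1820 in KD, and remained below those of MDA-MB-231 EV (3030 and 3079) and BT549 EV (2916 and 3031). In cluster 3, 12 of 25 were higher and 0 lower, with a median of 1.15 (0.69 with the bound). Cluster 8 had 15 higher and 5 lower of 38, and cluster 10 had 9 higher and 9 lower of 41. In SUM159 EV against MDA-MB-231 EV the lowest cluster medians were -2.03 in cluster 4, -1.27 in cluster 6 and -1.10 in cluster 3. These contrasts share the SUM159 EV libraries, so one is not separate evidence for the other. Of the 12 tested genes in the cluster 4 interval that are not annotated as protein-coding, 6 were called higher and 0 lower in KD. Reads shared between these genes and members could not be separated.

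ZNF93 had 1.01 and 4.02 normalized counts in SUM159 EV and 124 and 113 in KD. Its log2 fold change was 5.49 ± 0.40 (SE, adjusted p = 2.23e-11). ZNF43, a KRAB member of 19 fingers, had 4.04 and 0 in EV and 91.7 and 81.3 in KD, and ZNF486 had 6.06 and 0 in EV and 72.6 and 82.2 in KD. ZNF626 had 1.01 and 0 in EV and 16.1 and 17.3 in KD. In each of these genes both KD libraries lay far above both EV libraries, and the KD level of ZNF93 and ZNF43 was in the range of the other lines. ZNF506 and ZNF714, already present in EV, also rose. ZNF506 went from 37.3 and 30.2 to 125 and 142 (log2 fold change 1.98 ± 0.20, adjusted p = 6.26e-09). ZNF714 went from 90.8 and 86.5 to 147 and 149 (0.74 ± 0.15, adjusted p = 0.000151). ZNF85 differed by less than its error, with 20.2 and 25.1 in EV and 23.2 and 25.1 in KD (0.09 ± 0.31, adjusted p = 0.831).

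Of the 42 members silent in SUM159 EV, 16 were silent in KD as well and 26 were not, and 0 members were silent in KD but not in EV. Together the 42 had 30 and 28 counts in the EV libraries and 483 and 522 in the KD libraries. They were chosen for low EV counts, so a rise is favoured by the choice and these sums are a description. Going from at most 3 counts to at least 30 in each KD library was rare: 12 of 15877 protein-coding genes did so (0.0756%), and 5 of the 12 were members. The opposite change was made by 0.246% of protein-coding genes and by 0 members. ZNF415 had raw counts of 1 and 1 in EV and 81 and 116 in KD, a depth-corrected ratio of 91.0 (95% counting interval 24.9 to 757). ZNF347 (chr19:53124072-53159075) overlaps ZNF415 (chr19:53107879-53133077) on the same strand, so reads of the overlap could be assigned to either. It had 2 and 2 in EV and 63 and 78 in KD, a ratio of 32.6 (12.4 to 121). ZNF665, the next gene in the same run, had 1 and 0 against 31 and 31, whereas ZNF677, at the end of the run, reached only 5.04 and 2.59 normalized counts in KD. ZNF793 of cluster 6 had 1 and 2 counts against 62 and 42, and ZNF606 of cluster 10 had 3 and 0 against 30 and 30. In both SUM159 groups these 5 genes stayed below their level in BT549 EV, where ZNF415 had 389.8 and 339.9 normalized counts and ZNF347 had 384 and 354.

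**Figure D4:**
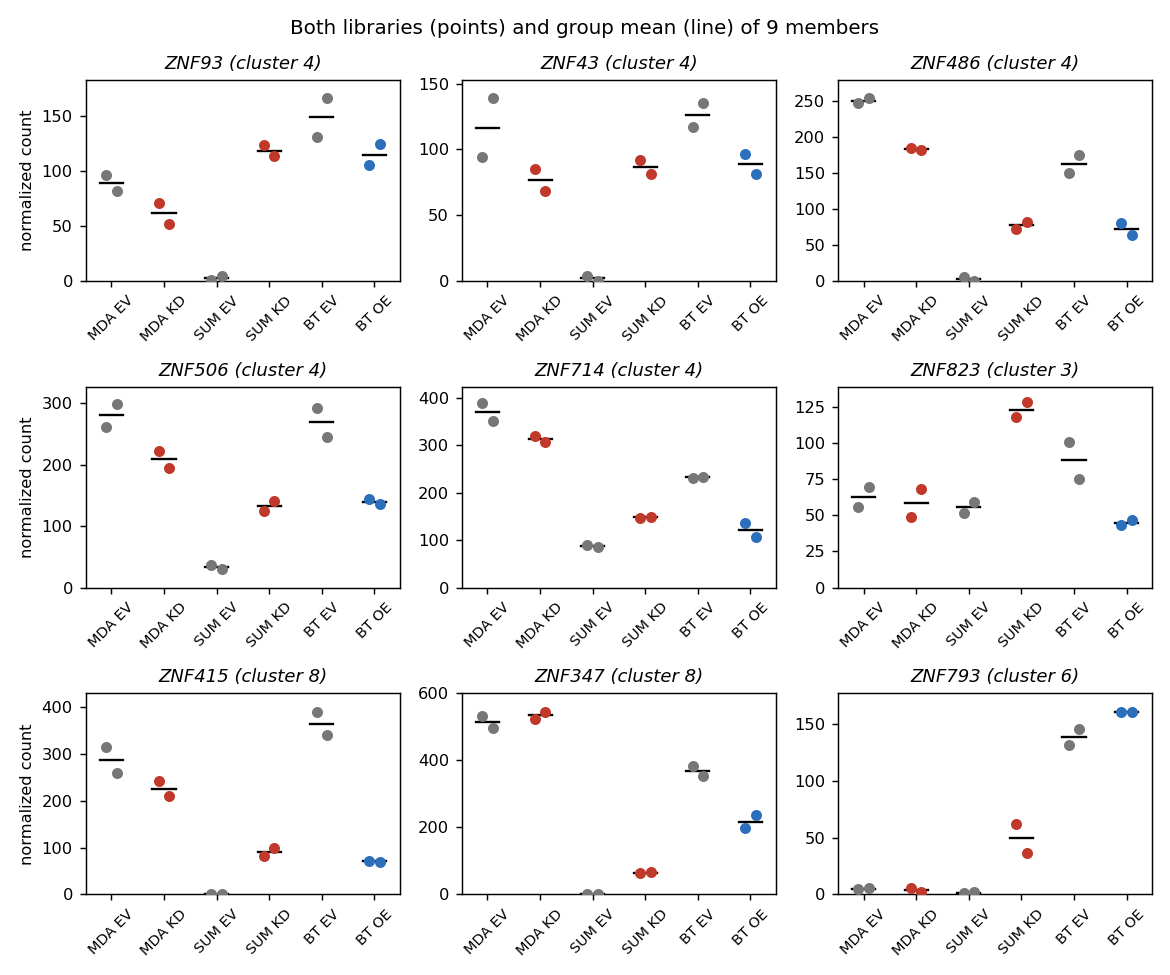
Normalized counts (vertical axes, starting at 0) of 9 members in both libraries of each group (points) with the group mean (line). MDA, SUM and BT stand for MDA-MB-231, SUM159 and BT549. In each panel both SUM159 KD points lie above both SUM159 EV points.

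Of the 33 members that fell in SUM159 KD, 9 lay in cluster 10, 6 in cluster 6 and 0 in clusters 3 and 4. ZNF773 of cluster 10 went from 215 and 245 to 64.5 and 54.5 normalized counts (log2 fold change -1.96 ± 0.20, adjusted p = 6.73e-09). ZNF181 and ZNF302 of cluster 5 fell by 1.31 and 1.20 on the log2 scale, with adjusted p = 4.61e-06 and 5.99e-09. ZNF577, ZNF772 and ZNF419 changed by -1.24, -1.02 and -0.91. Outside cluster 4, ZNF528 of cluster 8 went from 20.2 and 23.1 to 101 and 125 (2.38 ± 0.24, adjusted p = 5.43e-09), and ZNF497, ZNF823 and ZNF575 by 1.32, 1.15 and 1.07. ZNF428, the most abundant member per kilobase, rose by 0.55 ± 0.04 and ZNF146 fell by 0.35 ± 0.04, so the abundant members did not all move one way.

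Changes between TRMT112 KD and EV in MDA-MB-231 were small, and the balance of their directions depended on the processing. Of 228 tested members, 7 were called higher (3.07%) and 36 lower (15.8%), against 21.2% and 16.5% of all genes. The share of members called lower was thus near that of all genes, and the share called higher was below it. Libraries of a group differed more in members than in all genes, so a member is harder to call and these shares are not like for like. In MDA-MB-231 EV the median absolute log2 difference was 0.125 for members and 0.066 for all genes, both kept at a mean of at least 50 counts. The other groups had the same order. Only 2 members in each direction changed at least 2-fold, 0.877% each, against 1.60% and 1.61% of all genes. The median member log2 fold change was -0.15. The lower members included 8 of 31 in cluster 4 and 7 of 12 in cluster 2. ZNF121 of cluster 2 went from 627 and 687 normalized counts to 372 and 466 (log2 fold change -0.65 ± 0.10, adjusted p = 1.23e-05). ZNF146, the most abundant member by count, went from 4705 and 4660 to 3462 and 3466 (-0.43 ± 0.04, adjusted p = 2.92e-09). ZNF564, ZNF77, ZNF90, ZNF85 and ZNF43 fell by 0.73, 0.70, 0.67, 0.65 and 0.60 on the log2 scale. Among the members that rose, ZNF114 had the largest change of those above a mean of 50 counts, with 63.0 and 65.7 in EV and 116 and 102 in KD (0.76 ± 0.28, adjusted p = 0.0365). ZNF28 went from 347 and 318 to 438 and 460 (0.43 ± 0.10, adjusted p = 0.00154), and ZNF579 from 937 and 876 to 1163 and 1183 (0.37 ± 0.06, adjusted p = 2.78e-05). In this line 17 members were silent in both groups and the other 2, ZNF540 and ZNF233, in EV only. Passing between at most 3 and at least 30 counts was made by 0 members, against 0.0252% of protein-coding genes upward and 0.0126% downward. Without either KD library 16 members were called lower and without either EV library 18, so the count of 36 rests on all 4 MDA-MB-231 libraries. In cluster 4 the count ranged from 1 to 8 over the libraries left out. DESeq2 called 19 members lower, and with each member taken by its most abundant transcript 3 were higher and 1 lower.

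**Figure D5:**
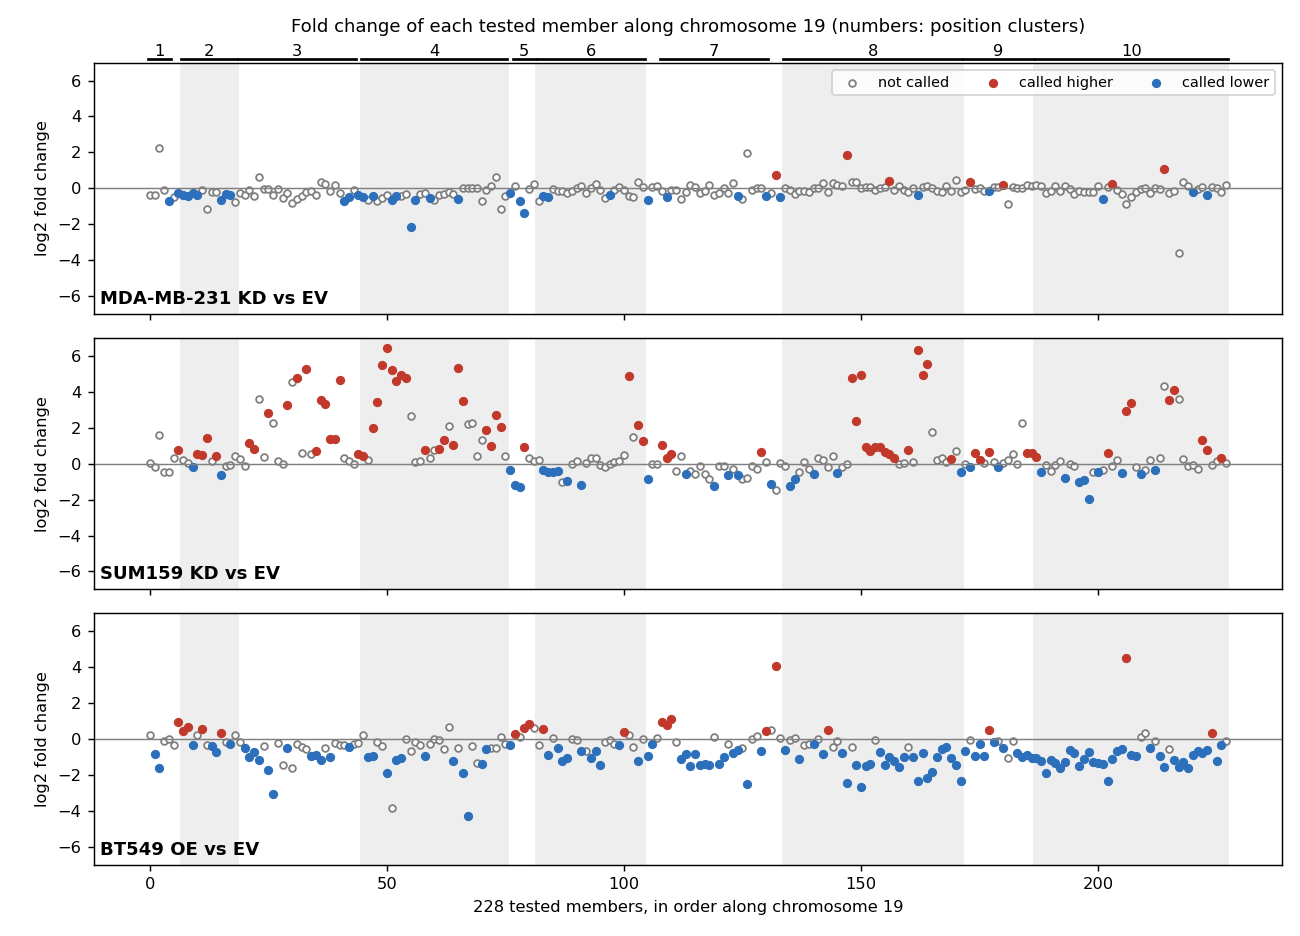
Log2 fold change (vertical axis) of the 228 tested members in map order (horizontal axis) for KD in MDA-MB-231, KD in SUM159 and OE in BT549. Filled points passed the test (red higher, blue lower), open points did not, and shading and numbers mark the position clusters. Points in clusters 3 and 4 lie high in SUM159 KD, and most points of clusters 8 and 10 lie below 0 in BT549 OE.

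The contrast of KD with EV differed between the lines. In each line, KD and any other difference between the EV and KD cells cannot be told apart. TRMT112 itself changed by -0.76 ± 0.04 on the log2 scale in SUM159 KD and by -1.23 ± 0.04 in MDA-MB-231 KD. In the test of the difference itself, 72 of 228 members (31.6%) had a higher log2 fold change in SUM159 than in MDA-MB-231 and 19 (8.33%) a lower one, where all genes gave 23.2% and 27.7%. A difference of at least 2-fold was called for 50 in the higher and 4 in the lower direction, against 7.21% and 7.77% of all genes. Cluster 4 held 22 of the 72 and cluster 3 held 14, with 0 in the other direction in both. The differences with the smallest p were 6.68 ± 0.47 for ZNF415, 6.02 ± 0.48 for ZNF93, 4.89 ± 0.41 for ZNF347 and 5.08 ± 0.47 for ZNF486. The values of ZNF93 and ZNF486 rest on few EV counts. Their log2 fold changes in SUM159 KD, 5.49 and 4.63, were 4.84 and 9.28 without SUM159 EV library 1 and 6.70 and 3.65 without library 2. The 9.28 stands against a lone EV library at 0 and is no bound. Of these, ZNF486 was called lower in MDA-MB-231 KD (from 246 and 253 to 184 and 181) and higher in SUM159 KD. In all, 13 members were called lower in MDA-MB-231 and higher in SUM159, among them ZNF43, ZNF90, ZNF506 and ZNF415. Another 8 were lower in both, including ZNF121, ZNF181, ZNF546, ZNF566 and ZNF146. ZNF28 was the only member called higher in both, and ZNF579 the only one higher in MDA-MB-231 and lower in SUM159.

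In BT549, many members were lower in OE than in EV. These 2 groups differed by at least 2-fold in 31.3% of all genes, near the 36.9% to 45.4% between lines, and OE and any other difference between the EV and OE cells cannot be told apart. Of 228 tested, 126 were called lower (55.3%) and 19 higher (8.33%), against 35.0% and 35.6% of all genes. With at least a 2-fold change, 65 were lower (28.5%) and 3 higher (1.32%), against 15.2% and 16.1% of all genes. The median member log2 fold change was -0.56, that of all genes 0.02 and that of ZNF genes on other chromosomes 0.00, where 63 of 216 were lower and 72 higher. In cluster 10, 34 of 41 were lower and 2 higher, with a median of -0.97, and in cluster 8, 27 of 38 were lower and 1 higher, with a median of -0.91. Cluster 2 had 4 lower and 4 higher of 12, and cluster 5 had 0 lower and 3 higher of 5. The summed normalized counts of cluster 10 were 11300 and 11028 in EV and 6310 and 6137 in OE. Other protein-coding genes in the cluster 10 interval were lower in 9 of 17 cases and higher in 1.

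ZNF274, a factor known to bring SETDB1 to the 3′ ends of ZNF genes, had 1203 and 1217 normalized counts in BT549 EV and 393 and 394 in OE. Its log2 fold change was -1.62 ± 0.07 (adjusted p = 1.56e-15), and its replicates were nearly identical. ZNF415 went from 389.8 and 339.9 to 72.0 and 70.2 (-2.36 ± 0.16, adjusted p = 4.16e-12). ZNF331, an imprinted gene at the end of cluster 8, went from 146 and 171 to 37.7 and 23.8 (-2.36 ± 0.21, adjusted p = 4.35e-10). ZNF530 went from 382 and 358 to 73.1 and 73.6 (-2.33 ± 0.16). ZNF677, ZNF439, ZNF135 and ZNF418 fell by 1.82, 1.70, 1.55 and 1.54 on the log2 scale. In each of these genes the groups did not overlap. ZNF98 passed from expressed to silent, with raw counts of 49 and 36 in EV and 1 and 3 in OE, a ratio of 20.9 (95% counting interval 7.87 to 78.5), while 0.781% of protein-coding genes made that change from at least 30 counts. The opposite change was made by 1.14% of protein-coding genes and by 0 members. Of the 19 members that rose, 9 had a KRAB match. The largest called rise in cluster 10 was 4.52 on the log2 scale. ZNF114, silent in EV but not in OE, had a log2 fold change of 4.09, which rests on few EV counts. ZNF541 was also silent in EV only and was not tested. Neither ZNF114 nor ZNF541 reached 30 counts in both OE libraries. Among abundant members, ZNF428 went from 2303 and 2249 to 4939 and 4756 (1.09 ± 0.04, adjusted p = 8.32e-17), and ZNF146 from 2776 and 2677 to 4122 and 4048 (0.58 ± 0.04). ZNF575, ZNF358 and ZNF576 rose by 0.96, 0.95 and 0.79.

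Among members with a KRAB match, 102 of 175 were lower and 9 higher in BT549 OE, with a median of -0.66. Among those without, 24 of 53 were lower and 10 higher, with a median of -0.33. All genes gave 35.0% lower and 35.6% higher in that contrast. In SUM159 KD the same lists had 58 higher and 24 lower of 175, and 16 higher and 9 lower of 53. The shares called higher were near each other and near the 28.6% of all genes, and both shares called lower were below the 31.4% of all genes. The calls were also counted by promoter CpG content. With bands chosen after the values were seen, 16 of 27 tested members with a CpG ratio under 0.5 were higher in SUM159 KD and 1 lower. From 0.5 to 0.7 it was 15 and 2 of 49, and at 0.7 and over 35 and 29 of 126. All genes with a window in the same bands were higher in 27.2%, 30.4% and 31.3% of cases. Of the 27, only 9 lay outside cluster 4, and 3 of these were higher and 1 lower, so the band and the cluster cannot be told apart here. In BT549 OE the lower members made up 44.4%, 53.1% and 57.1% of the 3 bands.

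More members were called between the EV groups of the lines than between KD and EV. TRMT112 itself differed between the EV groups, by 0.67 ± 0.04 on the log2 scale in SUM159 against MDA-MB-231 and by -1.07 ± 0.04 in BT549 against SUM159. In SUM159 EV against MDA-MB-231 EV, 135 members were lower (59.2%) and 30 higher (13.2%), where all genes gave 36.4% and 39.2%. In cluster 4, 24 of 31 were lower, with a median log2 difference of -2.03, and in cluster 6, 19 of 23. In BT549 EV against SUM159 EV, 164 were higher (71.9%) and 17 lower (7.46%), against 37.7% and 40.7% of all genes. At least a 2-fold difference was called higher for 105 and lower for 4, against 21.0% and 22.8% of all genes. In BT549 EV against MDA-MB-231 EV, 103 were higher (45.2%) and 38 lower (16.7%), against 39.1% and 40.4%, and all 15 tested members of cluster 9 were among the higher. The table lists no gene undetected in BT549, which favours higher calls in BT549. ZNF835 of cluster 9 had no row, and ZNF667 and ZNF471 of this cluster were silent in MDA-MB-231 EV, so the cluster 9 count is partly set by the table. The 3 contrasts share libraries in pairs. The summed normalized counts of members followed the order BT549 EV (58436 ± 87, SD, n = 2), MDA-MB-231 EV (48724 ± 257) and SUM159 EV (36108 ± 504), with no overlap between the groups. The order of BT549 and MDA-MB-231 rests on the TMM scaling. As a share of matched counts, without it, members took 0.226% and 0.228% in MDA-MB-231 EV and 0.219% and 0.219% in BT549 EV. SUM159 EV was lowest either way (0.155% and 0.158%). The sum of normalized counts was 44874 ± 193 in MDA-MB-231 KD, 38428 ± 419 in SUM159 KD and 49734 ± 101 in BT549 OE.

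Genes that act with KRAB zinc finger proteins were followed as a list of 26, of which 25 were tested. In SUM159 KD, 19 were called lower and 4 higher, against the 31.4% and 28.6% of all genes given above. TRIM28, the KRAB corepressor, went from 7106 and 6974 normalized counts to 4087 and 3990 (log2 fold change -0.80 ± 0.03, adjusted p = 5.76e-16). SETDB1, the histone H3 lysine methyltransferase of the complex, went from 521 and 504 to 325 and 403 (-0.49 ± 0.09), and its partner ATF7IP from 697 and 723 to 592 and 611. DNMT1, the maintenance DNA methyltransferase, went from 2255 and 2195 to 1508 and 1422 (-0.60 ± 0.05). The 4 that rose were CBX5, which encodes HP1 alpha, with 4200 and 4142 against 7531 and 7742, DNMT3B, DAXX and SUMO2. In MDA-MB-231 KD, 8 of the 25 were higher (32.0%) and 5 lower (20.0%), against 21.2% and 16.5% of all genes. DNMT1 changed by -0.51 ± 0.04 there and TRIM28 by 0.02 ± 0.03 (adjusted p = 0.608). In BT549 OE, 8 were higher (32.0%) and 10 lower (40.0%), near the 35.6% and 35.0% of all genes. TASOR, a subunit of the HUSH silencing complex, went from 2491 and 2390 to 1161 and 1296, HDAC1 from 5963 and 5961 to 3175 and 2927, and CHD3 of the NuRD complex from 6007 and 5781 to 12372 and 12455. TRIM28 levels in BT549 were 5110 and 5209 with EV, and 5540 and 5321 with OE. Whether these shifts have a part in the ZNF changes was not tested.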

How the data were processed

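Polysome RNA of 12 libraries was analysed. Per the study's methods, the authors used Trimmomatic for trimming, HISAT2 for alignment to GRCh38 and SAMtools to drop duplicates. The labels give a poly(A) library kit, but in the methods rRNA was depleted and a stranded kit for total RNA used. Values in the deposited table are expected counts, not normalized, of single Ensembl transcripts. The counting tool, annotation and strand setting are not given in the sources used here. In 5.08% of rows the MDA-MB-231 and SUM159 columns hold a missing mark, taken as 0, and their unit was recorded as other for this reason. Per-sample columns all had a group.

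Transcripts were matched to GENCODE 44 without version numbers (79.6% of them, holding 99.2% to 99.4% of counts), summed per symbol and rounded. Similar ZNF genes share reads that the expected counts divide, and genes on opposite strands may not be separated, so single members are uncertain to that extent. edgeR 4.0.16 (R 4.3.3) fitted 1 quasi-likelihood model of 6 group means with filterByExpr, TMM scaling and 6 residual degrees of freedom (common dispersion 0.000835), and genes were called at a Benjamini-Hochberg adjusted p under 0.05 over 16538 genes. The script was tested on simulated counts. Counting intervals and the limit of 3 counts cover counting error only. A change shared by all mRNAs would not appear after scaling. Python 3.11.15, pandas 2.3.3, scipy 1.17.1, Biopython 1.88 and matplotlib 3.10.9 were used. Protein sequences were not printed.

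The members, lists and tests were chosen with earlier results of these data known. Named members were, per contrast within a line, up to 8 in each direction with the largest called change above a mean of 50 counts and groups that do not overlap, those passing between silence and 30 counts, the 5 highest per kilobase, those called alike in both KD lines (up to 4 in each direction), the 4 with the smallest p of the difference between KD effects, the 5 highest in another line among those silent in an EV group, runs of silent neighbours, and per cluster the smallest p and highest level. ZNF91, ZNF233 and ZNF540 were named outside the rule. Same-numbered libraries did not deviate together (checked by the correlation of their deviations), so the numbers were not used as pairs. Alternatives were RLE factors, library size only, each line alone, DESeq2 1.42.0, genes unfiltered or kept above a mean of 50 counts, a replicate block, an added 2-fold threshold, marked transcripts left out, transcripts tested singly, and each library left out in turn.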

Additional observations from a re-analysis of the deposited data

Results flagged for a closer look

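The log2 fold change of TRMT112 KD against EV differed between MDA-MB-231 and SUM159 by the test of the difference in the same edgeR model. It was higher in SUM159 for 72 members and lower for 19. The 4 members with the smallest p of the difference were ZNF415 (6.68 on the log2 scale), ZNF93 (6.02), ZNF347 (4.89) and ZNF486 (5.08), each near 0 in both SUM159 EV libraries. With 1 library left out at a time, the log2 fold change in SUM159 KD ranged from 4.84 to 6.70 for ZNF93, from 3.65 to 9.28 for ZNF486, from 6.18 to 6.47 for ZNF415 and from 4.90 to 4.98 for ZNF347.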

How the results depend on the processing

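With transcripts tested singly and each member taken by its most abundant transcript, members called higher and lower numbered 3 and 1 in MDA-MB-231 KD, 26 and 7 in SUM159 KD, 6 and 36 in BT549 OE, 14 and 77 in SUM159 EV against MDA-MB-231 EV, 49 and 20 in BT549 EV against MDA-MB-231 EV, 103 and 6 in BT549 EV against SUM159 EV, and 20 and 2 for the difference of KD effects. ZNF302 in BT549 OE turned to -0.48, and ZNF566 to 0.08 in MDA-MB-231 KD and 0.61 in SUM159 KD, and the cause was not tested. With at least a 2-fold change also required, the counts in the same order were 2 and 2, 42 and 8, 3 and 65, 12 and 86, 54 and 17, 105 and 4, and 4 lower for the difference. DESeq2 called 19 members lower in MDA-MB-231 KD and 12 lower for the difference. With library size only, MDA-MB-231 KD had 4 higher members, while 70 and 27 were lower in BT549 EV against MDA-MB-231 EV and SUM159 EV. The median in MDA-MB-231 KD was -0.18 with each line alone and -0.24 with library size only, and in BT549 OE it was -0.48 above a mean of 50 counts. With silence as 0 counts, SUM159 EV, SUM159 KD and BT549 EV had 18, 4 and 2 silent members, and with at most 10 counts SUM159 KD and BT549 OE had 30 and 14. The cause of these shifts was not tested.

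Leaving out each library in turn, members called higher and lower ranged over 4 to 7 and 16 to 37 in MDA-MB-231 KD, 61 to 75 and 28 to 35 in SUM159 KD, 14 to 19 and 103 to 129 in BT549 OE, 21 to 31 and 117 to 137 in SUM159 EV against MDA-MB-231 EV, 93 to 103 and 34 to 38 in BT549 EV against MDA-MB-231 EV, 154 to 165 and 14 to 17 in BT549 EV against SUM159 EV, and 59 to 72 and 14 to 21 for the difference. The medians ranged from -0.1652 to -0.109, 0.1248 to 0.2778 and -0.6696 to -0.5651 in MDA-MB-231 KD, SUM159 KD and BT549 OE. Silent members numbered 19 in MDA-MB-231 EV, 20 to 21 in KD, 46 to 48 and 18 to 22 in SUM159 EV and KD, and 6 to 7 in both BT549 groups. A lone sample was assumed to vary like the other groups.

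The replicate numbers shared by the groups do not pair the libraries (correlations 0.0195, -0.0247 and 0.00376). With the replicate block, 6 and 30 members were higher and lower in MDA-MB-231 KD, 72 and 32 in SUM159 KD and 18 and 123 in BT549 OE. Of the 42 members silent in SUM159 EV, 37 passed the filter on low counts and 18 rose in KD by the test.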
